A study of Mus musculus with 20 samples.

Results

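TGFβ1 treatment of primary renal myofibroblasts from WWP2-/- mice was described by comparing 5 WWP2-/- libraries with TGFβ1 against 5 WWP2-/- libraries without it. These are 10 of the 20 bulk RNA sequencing libraries of the series, and the other 10 are WT cells with or without TGFβ1, used here only to ask where the WWP2-/- response stood apart. A gene was taken if 5 or more of the 20 libraries had 5 or more counts of it, which held for 20407 of 51826 genes. The cells came from C57BL/6J mice, WWP2-/- animals and their WT littermates, grew out of minced kidney pieces and were used at passage 2. The labels give neither a TGFβ1 dose nor a duration. The paper's legends for its bulk RNA results give 5 ng/µl for 72 hours, and some other culture experiments were shorter. The labels do not give the sex of the mice, and do not say whether a treated and an untreated culture with the same number came from the same mouse. *P* values therefore measure the spread between these cultures.

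TGFβ1 is the cytokine most closely tied to fibrosis. It binds a receptor kinase pair that phosphorylates SMAD2 and SMAD3, which enter the nucleus with SMAD4 and bind DNA at short CAGAC elements. In fibroblasts of the kidney this turns on collagens, fibronectin, matrix crosslinking enzymes and, with SRF at CArG boxes, the contractile proteins that define a myofibroblast. In many cell types TGFβ1 also holds back the cell cycle, in part through the CDK inhibitor genes *Cdkn2b* and *Cdkn1a*. WWP2 is an E3 ubiquitin ligase of the NEDD4 family, whose members act on components of this pathway.

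*Wwp2* itself was measured first, as CPM (counts scaled to library size, using edgeR's TMM factors). In untreated WWP2-/- replicates 1 to 5 it was at 18.5, 21.3, 22.7, 20.6 and 19.5 CPM, and with TGFβ1 at 21.1, 19.9, 17.0, 17.5 and 19.6 CPM. The groups overlapped, with a log2 fold change of −0.11 ± 0.083 (SE). WT cells were at 53.1 ± 4.14 CPM untreated and 53.5 ± 2.89 CPM with TGFβ1 (mean ± SD, n = 5), above every WWP2-/- library. *Wwp2* RNA thus remained in every WWP2-/- library. The paper reports that the protein's full-length and N isoforms are lost in these cells, and which transcripts remain was not tested.

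Library totals were between 48658418 and 73063697 counts in the 10 WWP2-/- libraries, and a count of 0 allowed at most 0.0617 CPM, a limit that covers counting error only. The 5 libraries of a group were not alike. Untreated replicate 3 and TGFβ1 replicate 1 had *Acta2*, the smooth muscle actin of myofibroblasts, at 38.9 and 50.4 CPM, against 1328 to 3430 CPM in the other 8. These 2 libraries lay at 123 and 124 on the first principal component and the other 8 between −48.5 and 1.26. They had *Xist*, the transcript of the inactive X chromosome, at 291 and 225 CPM and no count of the Y-linked *Ddx3y*, whereas 7 of the other 8 had *Ddx3y* alone and untreated replicate 1 had both. Each WWP2-/- group held 1 such library, and their deviations from the group means correlated at 0.907. Whether either carries the right label was not tested, and the labels were used as given. TGFβ1 replicate 3 stood apart in a different way. It lay at −48.8 on the second component and the other 9 between −24.7 and 26.5, and it had the highest fibrillar collagen sum of the 10, at 15000 CPM against 2840 to 8500 CPM. Fibroblast markers summed to 5810 to 11800 CPM untreated and 6780 to 16000 CPM with TGFβ1. The median sums were 8920 and 8520 CPM, against 20700 and 31200 CPM in WT cells. None of the 12 was at 0 throughout, which does not mean that each was present in every library. Results are given below with and without these libraries where the value turns on them.

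With all libraries, the lists with the lowest medians were those of the cell cycle. Genes of mitosis and DNA replication had lower mean levels with TGFβ1, but treated and untreated libraries overlapped in all 54 genes of the G2/M list and all 43 of the S phase list. *Acta2*, *Col1a1* and the other genes of TGFβ1 signalling and myofibroblast identity named here, apart from *Ccn4*, overlapped too. By edgeR's quasi-likelihood test on all 20 libraries, 0 of 20407 genes passed a Benjamini–Hochberg adjusted *P* of 0.05 (background 0%), and the lowest edgeR adjusted *P* was 0.603. At an unadjusted *P* of 0.05, edgeR gave 214 genes higher (background 1.05%) and 499 genes lower (background 2.45%). Background means the share of all genes tested, not a rate expected by chance. The 713 genes in either direction are fewer than the share of 0.05 that this level passes where no gene differs. DESeq2's Wald test, run on the same genes, called 2 genes higher (background 0.0098%) and 42 lower (background 0.206%), and gave no adjusted *P* for 3182 genes. In 34 genes all 5 TGFβ1 libraries lay above all 5 untreated ones (background 0.167%), and in 43 all lay below (background 0.211%). How many genes would separate in this way without any effect of TGFβ1 was not tested. The median log2 fold change over all genes was 0.00102, and the median SE was 0.315.

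The 44 DESeq2 calls depended on which libraries were compared. Without TGFβ1 replicate 3, DESeq2 called 0 genes and edgeR 0, with 267 genes higher and 531 lower at an unadjusted *P* of 0.05 by DESeq2. Without untreated replicate 3, edgeR called 64 genes, all of them lower, at adjusted *P* values of 0.0466 to 0.0498 by edgeR. Of the 44 genes, 34 were among these 64. Without both *Acta2*-low libraries, left out after seeing the data, edgeR called 0 genes at a lowest adjusted *P* of 0.123. At an unadjusted *P* of 0.05 it gave 418 higher and 803 lower. DESeq2 called 215, 25 higher and 190 lower. These 215 held 43 of the 44.

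Genes of mitosis were among those that DESeq2 called lower. Of its 44 calls, 14 were in the G2/M or S phase lists, and others with known roles in the cell cycle, named after their values were seen, were *Kif22*, *Plk1*, *Ccna2*, *Aspm*, *Ncapg*, *Espl1*, *Kif14* and *Knl1*. The gene of lowest edgeR *P* was in neither list. It was *Xkr5*, also named after its values were seen, at 0.216 to 3.41 CPM with a log2 fold change of −2.38 ± 0.50. Of the 54 genes of the Seurat G2/M list, 52 had a negative log2 fold change. At an unadjusted *P* of 0.05 by edgeR 39 were lower, against 499 of 20407 over all genes. DESeq2 called 13 lower, against 42 of 20407, and edgeR called 0. G2/M genes vary together across libraries, so the 39 are not independent. The median of the list was −1.40 on the log2 scale, against 0.00102 over all genes. It was −1.34 without TGFβ1 replicate 3 and −1.64 without the 2 *Acta2*-low libraries. In the latter fit 44 members were lower at an unadjusted *P* of 0.05 by edgeR, against 803 of 20407 over all genes. Of the 43 genes of the S phase list, 39 were negative, with a median of −0.47. At an unadjusted *P* of 0.05 by edgeR 21 were lower, against 499 of 20407 over all genes.

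*Kif22*, a kinesin that moves chromosome arms on the spindle, was at 7.55, 5.77, 6.50, 11.6 and 12.4 CPM in untreated replicates 1 to 5. Treated libraries were at 4.33, 3.94, 3.39, 5.28 and 5.20 CPM. Every treated library was below every untreated one, with a log2 fold change of −0.98 ± 0.21 and an adjusted *P* of 0.603 by edgeR and 0.0225 by DESeq2. *Kif22* was the gene of lowest edgeR *P* among those whose groups did not overlap.

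*Plk1*, the kinase that drives entry into and exit from mitosis, was at 8.52, 2.86, 1.23, 14.2 and 17.8 CPM untreated. In treated replicates 1 to 5 it was at 0.909, 1.25, 0.706, 2.12 and 2.12 CPM. Untreated replicates 1, 4 and 5 were above all treated libraries, replicate 2 only narrowly so, and replicate 3 was among them. The log2 fold change was −2.65 ± 0.62, with an adjusted *P* of 0.603 by edgeR and 0.0225 by DESeq2.

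*Ube2c*, the ubiquitin-conjugating enzyme of the anaphase-promoting complex, was at 14.3, 4.35, 1.01, 30.6 and 30.2 CPM untreated. The treated values were 0.707, 1.38, 1.41, 3.31 and 3.36 CPM, a log2 fold change of −2.98 ± 0.74. The order of the untreated libraries was close to that of *Plk1*, with replicate 3 the lowest. *Pimreg*, a regulator of the metaphase to anaphase transition, had untreated values of 7.47, 2.20, 0.805, 13.8 and 15.2 CPM and treated values of 0.808, 0.931, 0.746, 1.67 and 1.998 CPM. *Cdca2*, which brings protein phosphatase 1 to chromatin, was at 5.26, 1.39, 1.21, 8.20 and 9.04 CPM untreated and at 1.04, 1.18, 1.11, 1.26 and 1.58 CPM with TGFβ1. In both, the treated libraries were tight and the untreated ones spread, and untreated replicates 1, 4 and 5 were above every treated library.

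The proliferation marker *Mki67* was at 21.9, 5.29, 0.604, 33.6 and 51.3 CPM untreated and at 1.03, 2.78, 2.74, 5.66 and 4.85 CPM with TGFβ1. Its log2 fold change of −2.72 did not pass DESeq2 with all libraries, at an adjusted *P* of 0.0511, and of the edgeR fits run it passed only that without untreated replicate 3, at 0.0466. *Top2a*, the topoisomerase that untangles sister chromatids, was at 35.0, 10.8, 2.52, 58.4 and 75.4 CPM untreated. Treated libraries had 3.22, 6.63, 5.97, 9.16 and 10.1 CPM, and the gene was called lower by DESeq2 at an adjusted *P* of 0.0478. In both genes untreated replicate 3 was below every treated library, and TGFβ1 replicate 1 was the nearest to it.

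Replication genes had smaller differences. *Cdc6*, which loads the replicative helicase at origins, was at 3.27, 1.62, 0.845, 6.30 and 6.36 CPM untreated and at 1.03, 1.496, 1.01, 0.773 and 1.63 CPM with TGFβ1, a log2 fold change of −1.63 ± 0.44. Untreated replicates 1, 4 and 5 were again above every treated library. *Prim1*, the catalytic subunit of primase, had a log2 fold change of −1.02 ± 0.28.

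**Figure D1:**
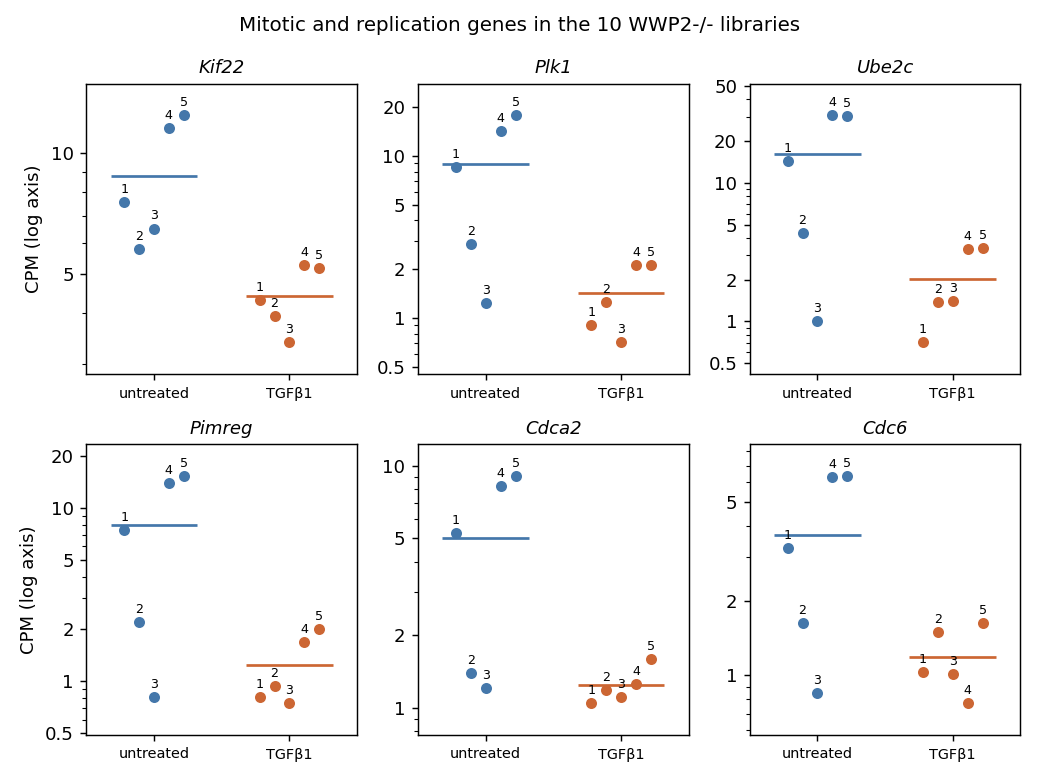
CPM (log axis) of 6 cell cycle genes in the WWP2-/- libraries, untreated (blue) and with TGFβ1 (orange). Each point is 1 library with its replicate number and each bar a group mean of 5. Untreated replicates 1, 4 and 5 lie above every treated library in all 6 genes, and untreated replicate 3 overlaps the treated libraries in all but *Kif22*.

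The promoters of mitotic genes are known for 2 elements. The cell cycle genes homology region holds the letters TTTGAA and is bound by the DREAM and MuvB complexes, and CCAAT boxes are bound by NF-Y. RefSeq promoters (GRCm38.p6, 250 bases before to 50 after the start) were found for 5 of 7 genes looked for. The *Kif22* promoter is shown because this gene did not overlap between groups, and those of *Plk1* and *Ube2c*, chosen after their values were seen, because of their large differences. Capitals mark TTTGAA and CCAAT on either strand, so that TTCAAA and ATTGG are matches on the other strand.
Kif22 promoter, chr7:127042371-127042670, minus strand: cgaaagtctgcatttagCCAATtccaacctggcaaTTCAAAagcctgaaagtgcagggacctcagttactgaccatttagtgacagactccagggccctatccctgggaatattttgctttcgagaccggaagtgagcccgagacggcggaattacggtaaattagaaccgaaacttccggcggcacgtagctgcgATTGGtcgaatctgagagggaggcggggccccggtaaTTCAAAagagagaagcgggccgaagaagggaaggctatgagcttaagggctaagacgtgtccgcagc
Plk1 promoter, chr7:122159185-122159484, plus strand: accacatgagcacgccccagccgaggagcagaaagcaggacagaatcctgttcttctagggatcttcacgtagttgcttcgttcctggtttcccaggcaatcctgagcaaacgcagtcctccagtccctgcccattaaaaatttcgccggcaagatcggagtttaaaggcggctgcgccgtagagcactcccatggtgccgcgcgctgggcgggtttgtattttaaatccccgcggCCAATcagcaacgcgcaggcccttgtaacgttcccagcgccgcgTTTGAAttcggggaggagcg
Ube2c promoter, chr2:164769679-164769978, plus strand: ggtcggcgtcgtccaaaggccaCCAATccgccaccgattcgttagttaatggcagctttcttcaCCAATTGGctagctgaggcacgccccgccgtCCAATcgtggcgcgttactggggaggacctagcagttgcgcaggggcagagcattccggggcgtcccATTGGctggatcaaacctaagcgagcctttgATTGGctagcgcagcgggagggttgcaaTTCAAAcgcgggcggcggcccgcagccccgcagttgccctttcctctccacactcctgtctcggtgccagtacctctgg
Distances were counted from the start site at 1, with the base before it at −1. The TTTGAA letters began at −215 and −17 in *Kif22*, at 31 in *Plk1* and at −29 in *Ube2c*. CCAAT letters began at −233 and −54 in *Kif22* and at −14 in *Plk1*, and *Ube2c* had 6 matches between −228 and −57, of which a pair shared bases. Of all 32851 promoters, 17.9% held TTTGAA and 37.4% CCAAT. Of the 52 promoters matched to 47 of the 54 G2/M genes, 65.4% held TTTGAA and 75% CCAAT. Of the 35 promoters matched to 31 of the 43 S phase genes, 14.3% held TTTGAA and 65.7% CCAAT. A match describes these letters and was not tested as a binding site.

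CDK inhibitors and p53 targets were divided evenly by sign. Of 34 genes, 17 had a positive and 17 a negative log2 fold change, with a median of −0.0052. *Cdkn2b*, the TGFβ1-induced inhibitor of CDK4 and CDK6, was at 83.8, 108, 53.2, 76.0 and 64.0 CPM untreated. With TGFβ1 it was at 67.4, 98.9, 296, 135 and 118 CPM. Replicates 1 and 2 lay within the untreated range and replicate 3 was the highest. The log2 fold change of 0.89 ± 0.29 had an adjusted *P* of 0.82 by edgeR, and was 0.45 without TGFβ1 replicate 3. *Cdkn2a*, which encodes an inhibitor of the same kinases, had a log2 fold change of 0.50 ± 0.21, and *Cdkn2c*, a related inhibitor, one of −0.59 ± 0.26. *Rgcc*, a regulator of cell cycle progression, was at 0.623, 0.574, 0.483, 0.881 and 0.919 CPM untreated and at 0.438, 1.96, 3.93, 3.05 and 1.41 CPM with TGFβ1. It was 1 of the 2 genes that DESeq2 called higher, at an adjusted *P* of 0.0433, with TGFβ1 replicate 1 below the untreated libraries and the other 4 above.

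The direct targets of TGFβ1 signalling gave a mixed picture. Of 27 immediate targets and feedback genes, 16 had a positive and 11 a negative log2 fold change, 4 and 1 at an unadjusted *P* of 0.05, and 0 were called by either tool. The median was 0.17, and −0.0045 without TGFβ1 replicate 3.

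*Pmepa1*, a feedback inhibitor that sequesters receptor-activated SMADs, was at 232, 182, 276, 252 and 210 CPM untreated. With TGFβ1 it was at 303, 319, 1018, 284 and 222 CPM. Replicate 5 lay within the untreated range and the other 4 treated libraries above it. The log2 fold change of 0.90 ± 0.30 had an adjusted *P* of 0.859 by edgeR and was 0.30 without TGFβ1 replicate 3.

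*Skil*, a SMAD corepressor, was at 109, 72.03, 132, 98.7 and 107 CPM untreated. With TGFβ1 it was at 137, 117, 257, 71.2 and 79.1 CPM. Replicate 3 stood well above the other libraries, and the log2 fold change was 0.35 ± 0.29, or −0.03 without it. *Smad7*, the inhibitory SMAD, was at 78.0 to 120 CPM untreated and 58.8 to 131 CPM with TGFβ1, a log2 fold change of −0.25 ± 0.19.

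*Ccn2*, a matricellular growth factor induced by TGFβ1, had a log2 fold change of 0.17 ± 0.67, with the 2 *Acta2*-low libraries at 339 and 299 CPM and the other 8 between 2199 and 4831 CPM. *Tgfbi*, a secreted adhesion protein, was at 0.121 to 2.53 CPM untreated and 0.320 to 6.63 CPM with TGFβ1. *Ltbp2*, a microfibril protein, was at 199 to 357 CPM untreated and 164 to 839 CPM with TGFβ1. Both overlapped between the groups. *Cthrc1*, a secreted protein of activated fibroblasts, was at 5.62 to 13.4 CPM untreated and 12.3 to 55.4 CPM with TGFβ1, a log2 fold change of 1.32 ± 0.47 that was 0.74 without replicate 3. *Nox4*, the NADPH oxidase induced by TGFβ1, had one of 0.89 ± 0.61, or 0.43 without it.

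With all libraries, no myofibroblast contractile gene differed beyond its spread. Of 30 genes, 8 had a positive and 22 a negative log2 fold change, 0 at an unadjusted *P* of 0.05, with a median of −0.18. The median was −0.45 without TGFβ1 replicate 3, with 27 negative and 3 at an unadjusted *P* of 0.05, and −0.35 without untreated replicate 3, with 28 and 4. Without TGFβ1 replicate 1 it was −0.02. *Acta2* was at 1999, 1759, 38.9, 3282 and 3229 CPM untreated and at 50.4, 1763, 3430, 1532 and 1328 CPM with TGFβ1. Its log2 fold change was −0.35 with a 95% confidence interval of −1.93 to 1.23, so that neither a marked increase nor a marked decrease was outside the interval. Without TGFβ1 replicate 3 it was −0.82. *Tagln* (transgelin) had a log2 fold change of −0.43 ± 0.61, or −1.01 without that library. *Cnn1* (calponin) had one of 0.17 ± 0.82, which was −0.77 without TGFβ1 replicate 3. *Myh11*, the smooth muscle myosin heavy chain, had one of −1.05 ± 0.70, or −1.88 without it.

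**Figure D2:**
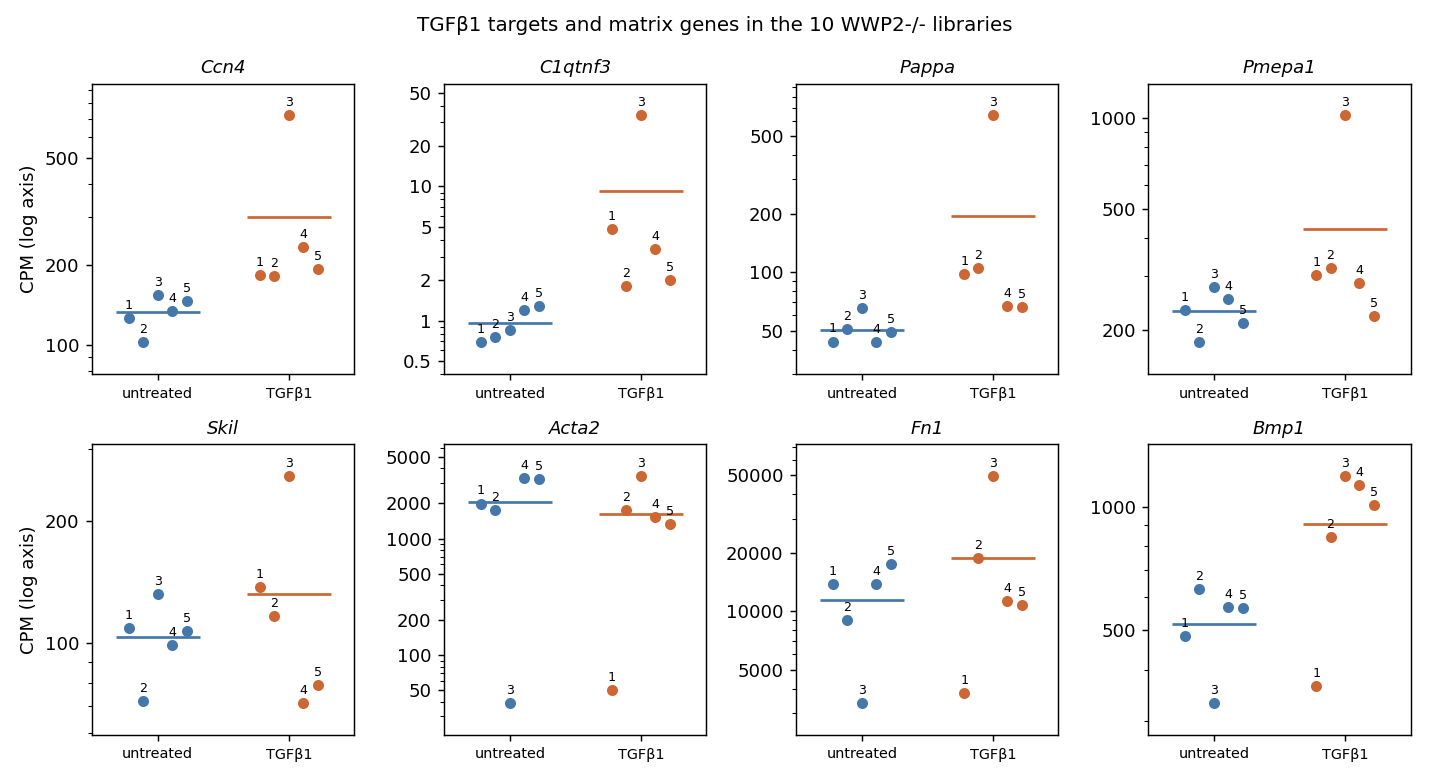
CPM (log axis) of 8 TGFβ1 targets and matrix genes in the WWP2-/- libraries, untreated (blue) and with TGFβ1 (orange). Each point is 1 library with its replicate number and each bar a group mean of 5. TGFβ1 replicate 3 is the highest library in all 8 genes, and untreated replicate 3 and TGFβ1 replicate 1 are far below the others in *Acta2* and *Fn1*.

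Genes of the extracellular matrix were higher mainly in TGFβ1 replicate 3. Among the 11 fibrillar collagens 7 had a positive log2 fold change, with a median of 0.50 that was −0.31 without this library. *Col1a1* was at 1973, 1131, 703, 3005 and 3728 CPM untreated and at 889, 1241, 5302, 1529 and 1362 CPM with TGFβ1. Treated replicates 1, 2, 4 and 5 lay within the untreated range, and the log2 fold change was −0.03 ± 0.56, or −0.75 without replicate 3. *Col3a1* had a log2 fold change of 0.64 ± 0.78. *Col5a3*, a chain of the minor fibrillar collagen V, was at 82.3, 39.0, 231, 37.7 and 40.6 CPM untreated and at 242, 168, 357, 106 and 83.8 CPM with TGFβ1. Without untreated replicate 3 every treated library was above every untreated one. The groups then did not overlap for 485 of 20407 genes, higher or lower, against 77 with all libraries. The *Col5a3* log2 fold change was 1.15 ± 0.55, and 1.87 without the 2 *Acta2*-low libraries, at an adjusted *P* of 0.0217 by DESeq2. *Col27a1*, another fibrillar collagen, had a log2 fold change of 0.78 ± 0.31, and *Lox*, the enzyme that crosslinks collagen and elastin, one of 0.17 ± 0.51.

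Of 26 other collagens 12 were positive and 14 negative. *Col7a1*, which forms anchoring fibrils, was at 14.4 to 20.4 CPM untreated and at 11.2, 23.0, 133, 25.5 and 26.8 CPM with TGFβ1. Its log2 fold change of 1.36 was 0.35 without replicate 3. *Col14a1*, a fibril-associated collagen of resting fibroblasts, was at 86.0, 8.37, 1.23, 143 and 151 CPM untreated and 1.63, 41.6, 35.1, 4.11 and 6.68 CPM with TGFβ1, a log2 fold change of −2.13 ± 1.01. Untreated replicates 1, 4 and 5 were again the high libraries.

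Matrix glycoproteins, 53 genes with a median of −0.09, included *Ccn4*, a matricellular protein and Wnt target. *Ccn4* was at 126, 102, 154, 134 and 146 CPM untreated and at 183, 181, 722, 232 and 193 CPM with TGFβ1. Every treated library was above every untreated one. The log2 fold change was 1.19 ± 0.32, with an adjusted *P* of 0.603 by edgeR, and 0.58 without TGFβ1 replicate 3. Without the 2 *Acta2*-low libraries, left out after seeing the data, it was 1.40. It then passed DESeq2 at an adjusted *P* of 0.0138, while edgeR called 0 genes.

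*Fn1*, fibronectin, had a log2 fold change of 0.72 ± 0.54 that was −0.04 without TGFβ1 replicate 3. *Eln*, elastin, was at 0.101 to 3.14 CPM untreated and at 0, 2.29, 110, 1.17 and 1.39 CPM with TGFβ1, and its log2 fold change of 3.73 was −0.51 without that library. The positive *Eln* value thus rested on 1 library. *Postn* and *Tnc*, adhesion proteins of wound matrix, had log2 fold changes of 0.82 ± 0.65 and 0.71 ± 0.51. *Tnc* was 0.35 without TGFβ1 replicate 3, and *Postn* was 1.43 without untreated replicate 3 and 0.42 without TGFβ1 replicate 1. *Has2*, the hyaluronan synthase, was at 10.03 to 14.96 CPM untreated and 12.9 to 46.8 CPM with TGFβ1, a log2 fold change of 0.99 ± 0.33 and 0.53 without replicate 3.

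Matrix proteases and inhibitors, 41 genes, had a median of 0.12, which was −0.10 without TGFβ1 replicate 3 and −0.15 without TGFβ1 replicate 1. *Bmp1*, the protease that cleaves procollagen C-propeptides, was at 484, 630, 331, 570 and 566 CPM untreated and at 364, 844, 1187, 1128 and 1010 CPM with TGFβ1. Apart from the 2 *Acta2*-low libraries, every treated library was above every untreated one. Without these 2, the groups did not overlap for 872 of 20407 genes, higher or lower, against 77 with all libraries. Such a separation is thus not particular to *Bmp1*. The *Bmp1* log2 fold change was 0.81 ± 0.27 with an adjusted *P* of 0.85 by edgeR. Without those 2 libraries it was 0.90 at an adjusted *P* of 0.00497 by DESeq2. *Adamts16*, a metalloprotease, was at 0.234, 3.37, 0, 0.448 and 0.622 CPM untreated and at 0.0337, 2.64, 21.7, 17.0 and 12.6 CPM with TGFβ1, a log2 fold change of 3.52 ± 1.46. *Mmp17*, a membrane-bound matrix metalloproteinase, was at 15.3, 12.3, 1.37, 24.7 and 32.1 CPM untreated and at 1.67, 8.45, 5.37, 5.89 and 7.30 CPM with TGFβ1. It was 1 of the 64 genes that edgeR called lower without untreated replicate 3, and its log2 fold change with all libraries was −1.58 ± 0.54.

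Of 27 ligands, receptors and SMADs of the TGFβ family, 17 were positive and 10 negative, 0 and 2 at an unadjusted *P* of 0.05, with a median of 0.07. The log2 fold changes ran from −1.39, that of *Smad9*, to 0.84. *Tgfb1* was at 106, 113, 149, 86.1 and 67.8 CPM untreated and at 162, 110, 221, 112 and 106 CPM with TGFβ1, a log2 fold change of 0.45 ± 0.22 and 0.25 without replicate 3. *Smad3* was at 151 to 218 CPM untreated and 126 to 158 CPM with TGFβ1, a log2 fold change of −0.35 ± 0.15.

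*Smad9*, a member of that list and a receptor-activated SMAD of BMP signalling, was at 5.79, 3.66, 2.46, 8.69 and 10.5 CPM untreated and at 2.66, 3.29, 1.43, 2.10 and 2.37 CPM with TGFβ1. Its log2 fold change was −1.39 ± 0.45 with an adjusted *P* of 0.759 by edgeR. From the BMP list, *Id2*, a BMP target that inhibits basic helix-loop-helix factors, was at 86.6, 85.4, 3.46, 137 and 128 CPM untreated and at 3.71, 46.2, 13.2, 45.3 and 45.7 CPM with TGFβ1. Apart from the 2 *Acta2*-low libraries, every treated library was below every untreated one. Without these 2, the groups did not overlap for 872 of 20407 genes, higher or lower. The *Id2* log2 fold change of −1.54 then had an adjusted *P* of 0.0193 by DESeq2. The related *Id1* had a log2 fold change of −0.82 ± 0.43. The 28 genes of the BMP list were divided into 15 positive and 13 negative.

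Of the genes whose 5 treated libraries all lay above the untreated ones, the 12 of lowest *P* at a mean of at least 1 CPM failed the edgeR threshold, and only *C1qtnf3* was called by DESeq2. *C1qtnf3*, a secreted protein of the C1q and TNF-related family, was at 0.688, 0.760, 0.845, 1.20 and 1.27 CPM untreated. With TGFβ1 it was at 4.78, 1.80, 33.8, 3.43 and 2.01 CPM, a log2 fold change of 3.26 ± 0.95 at an adjusted *P* of 0.0365 by DESeq2 and 0.631 by edgeR. Without replicate 3 it was 1.66 and the DESeq2 call was lost. Its promoter is shown as that of the single gene both called higher by DESeq2 and without overlap, with CAGAC, the SMAD element, in capitals on either strand.
C1qtnf3 promoter, chr15:10952082-10952381, plus strand: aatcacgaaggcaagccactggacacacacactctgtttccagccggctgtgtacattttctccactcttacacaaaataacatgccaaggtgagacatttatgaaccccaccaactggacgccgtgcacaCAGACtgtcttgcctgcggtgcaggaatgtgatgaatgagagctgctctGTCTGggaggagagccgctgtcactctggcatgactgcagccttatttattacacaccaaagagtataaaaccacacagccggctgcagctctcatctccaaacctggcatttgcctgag
These letters began at −119 and, on the other strand, at −70, and 49.6% of all promoters held them. The CArG box, 2 C, 6 A or T and 2 G, was found in 1.63% of all promoters and in 20% of the 35 promoters of the contractile list.

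*Pappa*, a protease that frees insulin-like growth factors from their binding proteins, was at 44.0, 51.0, 65.7, 43.6 and 49.3 CPM untreated and at 98.0, 105, 640, 67.0 and 66.4 CPM with TGFβ1. The lowest treated library lay just above the highest untreated one, and the log2 fold change of 1.94 ± 0.58 was 0.74 without replicate 3. *Ptgfrn*, a tetraspanin-associated membrane protein, was at 153, 178, 131, 145 and 155 CPM untreated and at 180, 217, 241, 214 and 232 CPM with TGFβ1. This gene did not depend on replicate 3, with a log2 fold change of 0.51 ± 0.16 and 0.47 without it. The other 8 were *Ctla2b*, *Pla2g16*, *Sgcb*, *Moxd1*, *Fech*, *Prss46*, *Tmed4* and *Sfxn5*. Among these, *Sgcb*, a sarcoglycan subunit, and *Fech*, the last enzyme of haem synthesis, had small log2 fold changes of 0.27 ± 0.095 and 0.14 ± 0.063.

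Of the genes whose treated libraries all lay below the untreated ones, *Kif22* headed the 12 of lowest *P* at a mean of at least 1 CPM and was the one among them that DESeq2 called. *Arhgef39*, which is below that limit and was named after its values were seen, had the next lowest *P*, a log2 fold change of −1.41 ± 0.31 and an adjusted *P* of 0.0238 by DESeq2. *Lmnb1*, lamin B1, was at 23.4, 17.2, 17.9, 31.8 and 35.6 CPM untreated and at 15.8, 12.9, 12.5, 15.3 and 17.1 CPM with TGFβ1, a log2 fold change of −0.77 ± 0.19. *Pkmyt1*, the kinase that restrains CDK1 before mitosis, had one of −0.93 ± 0.32. *Eno3*, the muscle form of the glycolytic enzyme enolase, was at 17.4, 8.70, 11.2, 27.1 and 27.6 CPM untreated and at 8.45, 6.75, 8.07, 4.29 and 6.16 CPM with TGFβ1. Its log2 fold change was −1.45 ± 0.40. The untreated libraries with the highest values were again replicates 1, 4 and 5.

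*Cirbp*, a cold-inducible RNA-binding protein, was at 25.6, 32.4, 25.6, 26.3 and 27.1 CPM untreated and at 18.8, 20.1, 11.7, 18.6 and 23.7 CPM with TGFβ1. Untreated replicate 2 was the highest and TGFβ1 replicate 3 the lowest, and the log2 fold change was −0.56 ± 0.16. *Tra2b*, a splicing regulator, had a log2 fold change of −0.20 ± 0.071 and *Rtel1*, a helicase of telomeres, one of −0.29 ± 0.12. *Rn7sk*, the 7SK RNA that holds the elongation factor P-TEFb inactive, was at 0.787 to 1.54 CPM with a log2 fold change of −0.51 ± 0.20. These are poly-A libraries, and how well they measure this RNA was not tested. The other 4, *Wdr90*, *Pask*, *Abcc10* and *Plcd3*, had log2 fold changes between −0.59 and −0.34.

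Among transcription factors of mesenchymal cells, *Foxd1*, which marks the stromal progenitors of the kidney, was at 21.2, 9.76, 12.9, 31.2 and 29.5 CPM untreated and at 9.75, 12.8, 6.90, 5.41 and 6.05 CPM with TGFβ1, a log2 fold change of −1.35 ± 0.37. Only treated replicate 2 lay above the lowest untreated library. The immediate early genes *Fos* and *Egr1* had log2 fold changes of −1.27 ± 0.48 and −0.75 ± 0.29. Among genes of progenitor and adventitial fibroblasts, *Dpp4* had one of −2.21 ± 0.77 at 0.161 to 4.67 CPM. *Aldh1a1*, a retinaldehyde dehydrogenase, had one of −1.74 ± 0.63. *Pdgfra*, the PDGF receptor of fibroblasts, was at 93.4 and 105 CPM in the 2 *Acta2*-low libraries, at 14.4 CPM in untreated replicate 1 and at 0.548 to 1.87 CPM in the other 7.

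Metabolic genes had medians close to 0. The 74 nuclear genes of oxidative phosphorylation had a median log2 fold change of −0.0032, with 35 positive and 39 negative and 0 at an unadjusted *P* of 0.05. Without untreated replicate 2 they were 63 and 11, and without untreated replicate 3 they were 18 and 56. Glycolysis had 16 positive and 17 negative of 33, and fatty acid oxidation 22 and 19 of 41. *Ppargc1a*, the coactivator of mitochondrial biogenesis, was at 0.886 to 9.41 CPM untreated and 0.282 to 5.003 CPM with TGFβ1. *Phgdh*, the first enzyme of serine synthesis, was at 302, 323, 191, 365 and 310 CPM untreated and at 220, 175, 219, 198 and 232 CPM with TGFβ1, with untreated replicate 3 alone among the treated values. *Glul*, glutamine synthetase, was at 95.7, 83.7, 64.3, 126 and 131 CPM untreated and at 65.4, 75.5, 39.0, 77.3 and 70.7 CPM with TGFβ1. Their log2 fold changes were −0.51 ± 0.18 and −0.61 ± 0.18.

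Cholesterol synthesis was the list with the most one-sided signs outside the cell cycle and the macrophage markers. Of 32 genes 28 were positive, 0 at an unadjusted *P* of 0.05, with a median of 0.31 that was −0.02 without TGFβ1 replicate 3. *Insig1* and *Acly* had log2 fold changes of 0.65 ± 0.44 and 0.44 ± 0.25, which were 0.21 and 0.05 without that library.

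The other lists had medians between −0.06 and 0.13 with 0 members called by either tool. With 1 library left out these medians ranged from −0.29 to 0.33, and all but that of the proteoglycan and hyaluronan genes changed sign in at least 1 such fit. The medians of other collagens, matrix glycoproteins, BMP genes and the TGFβ family did so too. Positive log2 fold changes were found in 24 of 33 proteoglycan and hyaluronan genes, 20 of 30 collagen folding and crosslinking genes and 22 of 41 matrix proteases and inhibitors. Among signalling and adhesion genes they were found in 21 of 33 Wnt, 22 of 45 growth factor and 11 of 20 integrin genes. The counts were 23 of 51 for mesenchymal transcription factors, 10 of 23 for progenitor and adventitial fibroblast genes, 27 of 40 for serine, glycine and amino acid response genes, 13 of 29 for endoplasmic reticulum folding and 28 of 46 for antioxidant genes.

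**Figure D3:**
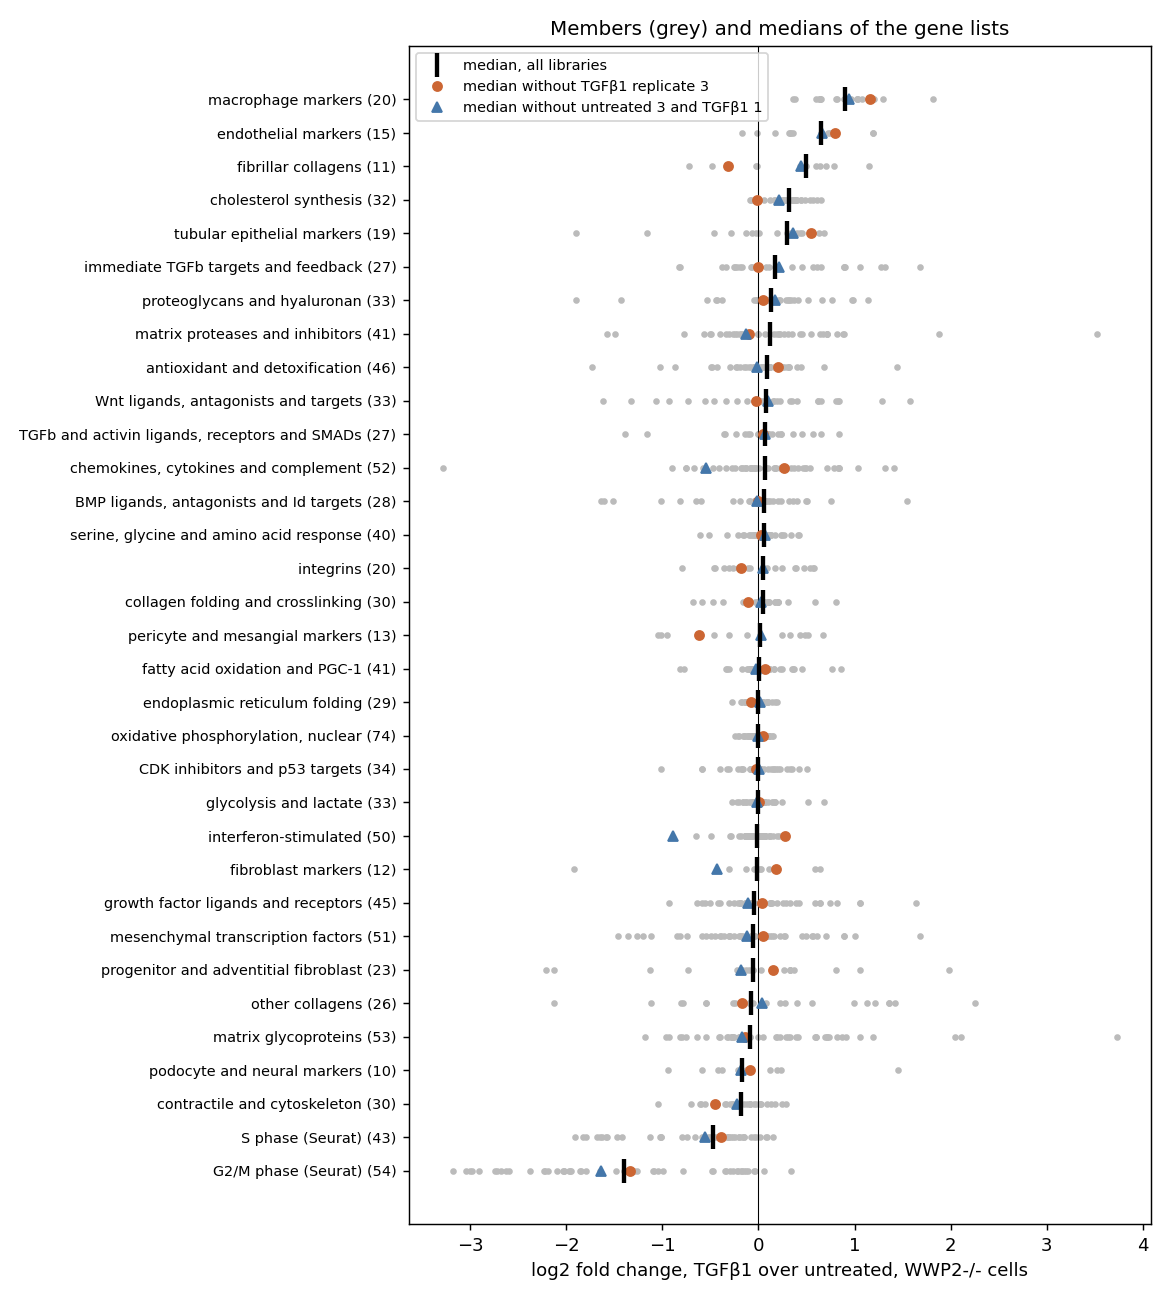
Log2 fold change (TGFβ1 over untreated, WWP2-/- cells) of every tested member of the gene lists (grey points), with the number of members in parentheses. Black bars are medians over all libraries, orange circles without TGFβ1 replicate 3 and blue triangles without untreated replicate 3 and TGFβ1 replicate 1. The G2/M and S phase medians are negative in all 3, at −1.40 and −0.47 with all libraries, and the fibrillar collagen and cholesterol medians are positive only with TGFβ1 replicate 3 included.

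Markers of other cell types varied widely between libraries of each group. In bulk RNA, fewer cells of a type and less RNA per cell cannot be told apart. All 20 macrophage markers had a positive log2 fold change, 0 at an unadjusted *P* of 0.05, with a median of 0.91. It ranged from 0.39 to 1.75 with 1 library left out, and 3 markers had an unadjusted *P* under 0.05 without untreated replicate 2. Their summed level was 848, 2670, 150, 669 and 522 CPM in untreated replicates 1 to 5 and 152, 1370, 422, 4740 and 3560 CPM with TGFβ1. *Lyz2*, lysozyme of macrophages, had a log2 fold change of 1.29 ± 1.03. None of these markers was at 0 in all WWP2-/- libraries. With their sum as a covariate, edgeR called 0 genes in the WWP2-/- response, the G2/M median was −1.50 and the S phase median −0.47. The median of the macrophage list itself became −0.03, which follows from using the sum of the same markers as the covariate. That of tubular markers went from 0.30 to −0.63 and that of endothelial markers from 0.65 to 0.01.

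Tubular epithelial markers summed to 84.2 to 1960 CPM untreated and 59.4 to 1830 CPM with TGFβ1, with 12 positive and 7 negative of 19. Endothelial markers summed to 21.7 to 236 CPM and 27.1 to 235 CPM. Pericyte and mesangial markers had 7 positive and 6 negative, and *Abcc9* and *Cox4i2* stayed under 1 CPM in all WWP2-/- libraries. Of 10 podocyte and neural markers 5 were under 1 CPM in all WWP2-/- libraries, *Nphs1*, *S100b* and *Sox10* among them.

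Interferon-stimulated genes were highest in the 2 *Acta2*-low libraries, 1 of each group. Their sum was 20700 CPM in untreated replicate 3 and 23000 CPM in TGFβ1 replicate 1, 4510 CPM in untreated replicate 1 and 1360 to 1960 CPM in the other 7. Of 50 genes 24 were positive and 26 negative, with a median of −0.01. Without the 2 *Acta2*-low libraries 2 were positive and 48 negative, 10 at an unadjusted *P* of 0.05, with a median of −0.89, and untreated replicate 1 was then the high library. Chemokines, cytokines and complement genes had 28 positive and 24 negative of 52 with all libraries, and 14 and 38 without these 2.

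**Figure D4:**
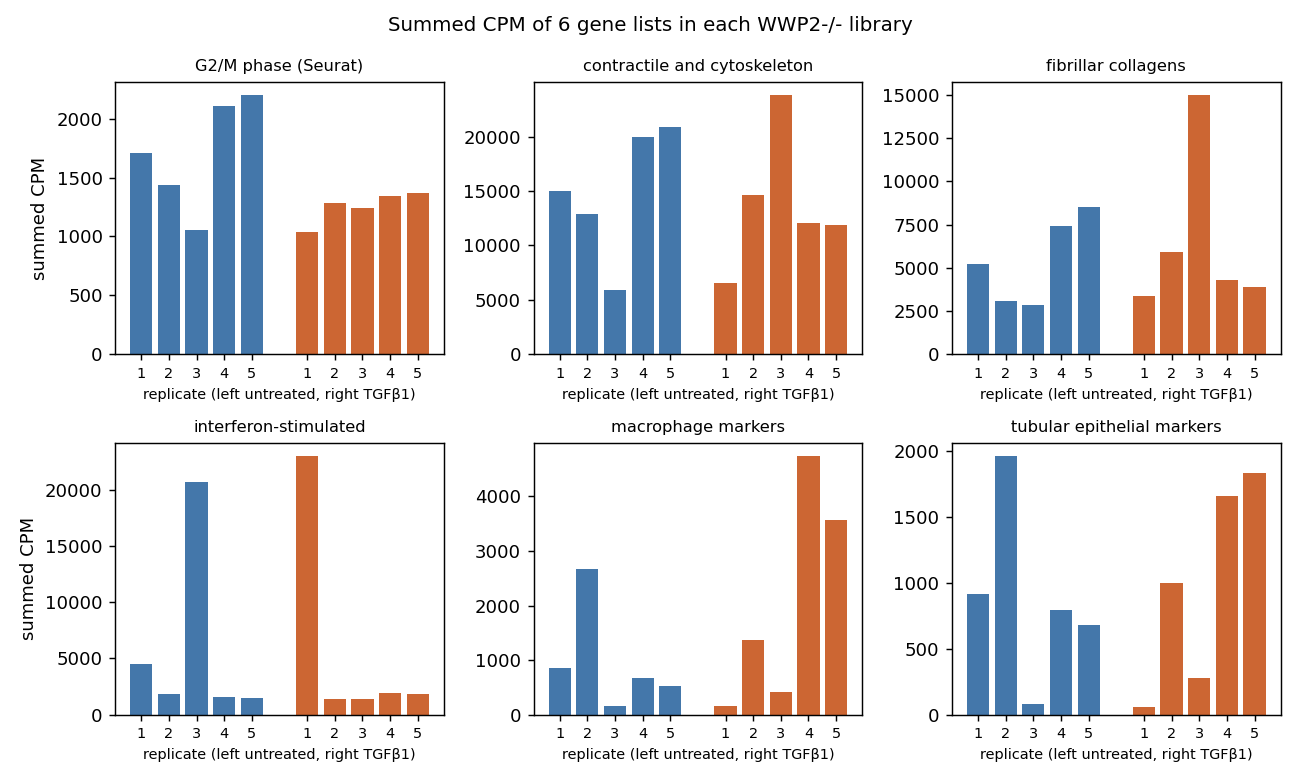
Summed CPM of 6 gene lists in the 10 WWP2-/- libraries, 5 untreated (blue, left) and 5 with TGFβ1 (orange, right), 1 bar per library. G2/M sums are highest in untreated replicates 1, 4 and 5, at 1710, 2110 and 2200 CPM, fibrillar collagens in TGFβ1 replicate 3 at 15000 CPM, interferon-stimulated genes in untreated replicate 3 and TGFβ1 replicate 1, and macrophage markers in TGFβ1 replicates 4 and 5.

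Where the WWP2-/- response stood apart from that of WT cells was asked with the interaction of genotype and treatment. In WT cells edgeR called 0 of 20407 genes for TGFβ1 (background 0%), at a lowest adjusted *P* of 0.641. At an unadjusted *P* of 0.05 it gave 1397 of 20407, and DESeq2 called 27 of 20407. For the difference between the responses edgeR called 0 of 20407 genes (background 0%), at a lowest adjusted *P* of 0.511. At an unadjusted *P* of 0.05 it gave 1424 of 20407, and DESeq2 called 10 of 20407. The WWP2-/- response thus did not pass as different from the WT response in any gene by edgeR.

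G2/M genes had opposite signs. In WT cells 47 of 54 were positive with a median of 0.32 and 0 at an unadjusted *P* of 0.05. The median difference between the responses was −1.72. Of the 54, 38 had an unadjusted *P* under 0.05 for the difference by edgeR, against 1424 of 20407 over all genes. G2/M genes vary together across libraries, so the 38 are not independent. *Plk1* in WT cells was at 2.98 ± 0.96 CPM untreated and 5.70 ± 3.19 CPM with TGFβ1, against 8.92 ± 7.12 and 1.42 ± 0.67 CPM in WWP2-/- cells (mean ± SD, n = 5). The difference between its responses was −3.58 ± 0.85 on the log2 scale, with an adjusted *P* of 0.511 by edgeR and 0.0333 by DESeq2. WT levels lay between those of untreated and treated WWP2-/- cells.

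Among genes with a mean of at least 1 CPM over the 20 libraries, the 6 of lowest edgeR *P* for the difference were *Nnat*, *Foxd1*, *Itih2*, *Zbtb7c*, *Samhd1* and *Plk1*. In all 6 the WWP2-/- log2 fold change was negative and that of WT cells positive. *Foxd1* was at 20.9 ± 9.59 and 8.18 ± 3.07 CPM in WWP2-/- cells and at 16.8 ± 3.88 and 40.1 ± 23.0 CPM in WT cells, a difference of −2.61 ± 0.52 with an adjusted *P* of 0.511 by edgeR and 0.0103 by DESeq2. *Itih2*, a hyaluronan-binding serum protein subunit, was at 23.7 ± 19.2 and 5.17 ± 2.62 CPM in WWP2-/- cells and 2.78 ± 0.83 and 6.82 ± 2.15 CPM in WT cells. *Nnat*, neuronatin, differed by −2.17 ± 0.42, at 0.00924 by DESeq2. *Samhd1*, a dNTP hydrolase, was at 94.2 ± 22.8 and 64.9 ± 20.4 CPM against 87.6 ± 8.32 and 184 ± 72.8 CPM, a difference that DESeq2 did not call, at an adjusted *P* of 0.0651.

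Other lists that differed in sign had markers of other cells among them. Macrophage markers had a median log2 fold change of −2.49 in WT cells, 20 of 20 negative, against 0.91 in WWP2-/- cells. For the difference 19 of 20 had an unadjusted *P* under 0.05 by edgeR, against 1424 of 20407 over all genes. These markers vary together across libraries, so the 19 are not independent. Macrophage markers summed to 1320, 1710, 210, 5470 and 829 CPM in WT untreated replicates 1 to 5 and 115 to 631 CPM with TGFβ1. Fibrillar collagens summed to 3310 CPM in WT untreated replicate 4, against 14100 to 19900 CPM in the other untreated WT libraries. At an unadjusted *P* of 0.05, edgeR gave 745 genes higher for the difference with all libraries. With 1 library left out this was 365 to 1266, the 365 without WT untreated replicate 4. *Xist* was above 1 CPM in 4 untreated and 4 treated WT libraries, against 2 and 1 in WWP2-/- cells. Summed Y-linked transcripts were above 1 CPM in 4 untreated and 2 treated WT libraries, against 4 and 4 in WWP2-/- cells. *Xist* without Y-linked transcripts was found in WT untreated replicate 3 and in WT TGFβ1 replicates 2, 4 and 5. Treated and untreated WT libraries thus differed in these transcripts too. For the difference edgeR called 0 genes with *Xist* as a covariate, at 895 higher and 1001 lower at an unadjusted *P* of 0.05, and 0 with the macrophage sum as one, at 751 and 1341. Interferon-stimulated genes had a median of 2.80 in WT cells, 49 of 50 positive, against −0.01. Contractile genes had a median of 0.35 in WT cells, with 26 of 30 positive, against −0.18. At an unadjusted *P* of 0.05 by edgeR for the difference, 5 of 50 interferon-stimulated and 1 of 30 contractile genes passed, against 1424 of 20407 over all genes. None of these members passed the edgeR threshold for the difference.

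**Figure D5:**
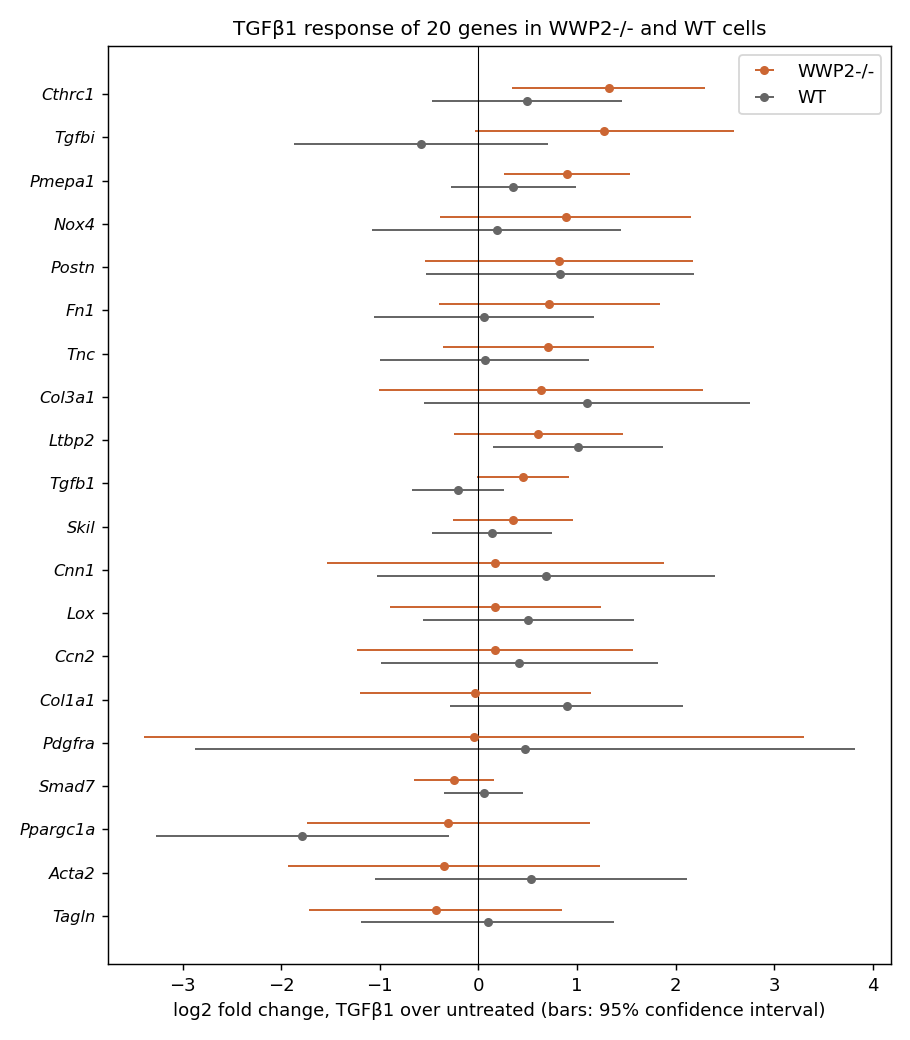
Log2 fold change (TGFβ1 over untreated) of 20 genes of TGFβ1 signalling, matrix and myofibroblast identity in WWP2-/- cells (orange) and WT cells (grey), with 95% confidence intervals from the edgeR fit. In WWP2-/- cells the intervals of *Pmepa1* and *Cthrc1* lie above 0 before adjustment over all genes. The WWP2-/- and WT intervals of all 20 genes overlap, which is not a test of the difference. For *Tgfbi* the difference was 1.86 (95% confidence interval 0.024 to 3.70), with an adjusted *P* of 0.707 by edgeR.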

How the data were processed

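Bulk RNA was measured in 20 libraries of primary renal myofibroblasts, 5 per genotype and treatment. Poly-A libraries were prepared by the authors, who mapped the paired 150-base reads to GRCm38 using STAR and took exonic featureCounts totals, and the deposited values are raw counts per gene, without normalization. Names and positions come from GENCODE M21, which names 20356 of the 20407 genes tested. Counts were fitted in R 4.3.3 with edgeR 4.0.16 (TMM, glmQLFit, glmQLFTest, 4 group means, 16 residual degrees of freedom, Benjamini–Hochberg adjustment), with DESeq2 1.42.0 (the Wald test of the study's methods) as the alternative. The S and G2/M lists are those of Seurat 5.3.0. All lists and members were chosen with earlier results of these data known. Genes named are *Wwp2*, 20 of 21 anchor genes, the 12 non-overlapping genes of lowest *P* in each direction at a mean of at least 1 CPM, the 3 members of lowest *P* per list, of which those with a result to describe are given, and the 6 genes of lowest *P* for the difference between responses at a mean of at least 1 CPM over the 20 libraries. Genes outside this rule are said to be. Some genes that the rule named are not reported here. The fit was also run on simulated counts, whose results are not given here. These counts were drawn independently, without outlying libraries or genes that vary together, so they cannot show how the fit handles either. Same-numbered WWP2-/- libraries did not deviate together, with correlations between −0.19 and 0.28, whereas some differently numbered ones did, with 0.907 for untreated 3 with TGFβ1 1, 0.766 for untreated 2 with TGFβ1 5 and 0.703 for untreated 2 with TGFβ1 4. Alternatives were another scaling, filter, test, threshold or covariate, a replicate block and leaving out libraries.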

Additional observations from a re-analysis of the deposited data

Results flagged for a closer look

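Within each WWP2-/- group of 5, the highest or lowest library of 82 named genes was compared with the rest by the gap to its nearest neighbour over the range of the group. In 28 of 164 groups this ratio was above Dixon's critical value for 5 samples, where chance flags about 1 in 20 of independent groups. These genes were chosen partly by their values in the same libraries and vary together, so that rate is no reference for the count. In 15 of the 28 the distant library was TGFβ1 replicate 3. It had *Pmepa1* at 1020 CPM, *Cthrc1* at 55.4, *Cnn1* at 329, *Col1a1* at 5300, *Ccn4* at 722, *C1qtnf3* at 33.8, *Pappa* at 640, *Ctla2b* at 28.2 and *Moxd1* at 4.54 CPM. It also had *Prss46* at 28.4, *Col27a1* at 10.5, *Col7a1* at 133, *Eln* at 110, *Has2* at 46.8 and *Acly* at 1140 CPM. All 15 were the highest of the treated libraries.

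The *Acta2*-low untreated replicate 3 was distant for *Nox4* at 17.8, *Tnc* at 189, *Pdgfra* at 93.4, *Col5a3* at 231, *Has2* at 15 and *Acsl3* at 53.2 CPM, low in the first 2 and high in the others. The other *Acta2*-low library, TGFβ1 replicate 1, was distant for *Pdgfra* at 105 and *Sfxn5* at 10.1 CPM. Untreated replicate 2, which had the highest macrophage marker sum of the untreated libraries, was distant for *Ppargc1a* at 9.41, *Cirbp* at 32.4, *Adamts16* at 3.37 and *Lyz2* at 1350 CPM. Untreated replicate 5 was distant for *Wdr90* at 14.9 CPM. What these libraries have in common beyond these values was not tested.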

How the results depend on the processing

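By edgeR the count of genes called for TGFβ1 in WWP2-/- cells was 0 in both directions with DESeq2's size factors, no filter, at least 10 counts in every library, an adjusted *P* of 0.01, only the WWP2-/- libraries or *Xist* as a covariate, and, chosen after seeing the data, without both *Acta2*-low libraries, without the 3 libraries with *Xist*, or with the macrophage sum as a covariate. With the replicate block it was 0 higher and 0 lower, with 108 and 350 at an unadjusted *P* of 0.05. Leaving out 1 library gave 0 higher and 0 to 64 lower, the 64 without untreated replicate 3. DESeq2 called 2 higher and 42 lower, and, chosen after seeing the data, 25 and 190 without both *Acta2*-low libraries and 0 and 0 without TGFβ1 replicate 3. In WT cells DESeq2 called 13 higher and 14 lower, edgeR with *Xist* as a covariate 1 higher, and leaving out 1 library gave 0. For the difference DESeq2 called 2 higher and 8 lower, 149 and 340 without both *Acta2*-low libraries, and 3 and 7 without TGFβ1 replicate 3, while edgeR gave 0 without any 1 library. Non-overlapping genes numbered 77, from 106 to 485 with 1 library left out and 872 without both *Acta2*-low ones, where fewer libraries overlap less by construction.

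Over the fits without 1 library, the log2 fold change in WWP2-/- cells ranged from −0.027 to 0.51 for *Skil*, −0.17 to 0.47 for *Ccn2*, −0.77 to 0.50 for *Cnn1*, −0.75 to 0.28 for *Col1a1*, −0.037 to 0.998 for *Fn1*, −0.081 to 0.36 for *Lox*, −5.05 to 2.23 for *Pdgfra*, −0.67 to 0.62 for *Ppargc1a* and −0.51 to 4.08 for *Eln*. With the replicate block *Ccn2* was −0.037, *Cnn1* −0.65 and *Eln* −0.17. With *Xist* as a covariate *Ccn2* was −0.29 and *Cnn1* −0.28. *Col1a1* was 8.13e-06 with size factors, 1.41e-05 by DESeq2 and 0.12 with the macrophage sum, which brought *Lyz2*, a macrophage marker itself, to −0.025. The causes were not tested. The G2/M median stayed between −1.63 and −1.12 without any 1 library, and was −1.21 with the block.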
